A study of Mus musculus with 16 samples.

Results

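The genes of cholesterol and fatty acid synthesis were followed through a stepwise induction of mouse induced pluripotent stem (iPS) cells. The set is a list of 33 gene symbols that covers the enzymes from acetoacetyl-CoA to cholesterol, the sensors and factors that control them, sterol carriers and the enzymes that make and desaturate fatty acids. Symbols were looked up in the platform annotation, and each gene was read from its brightest probe by mean raw intensity over all arrays. A probe was named for 29 of the 33 genes, and 26 were detected on at least 4 of 16 arrays and tested, out of 9453 genes tested and 16593 genes named on the array. Mvk, Fdft1, Acat2 and Npc1 had no probe named here. Idi1, Fasn and Abca1 each had a probe that was not well above background on any of the 16 arrays, so their levels could not be compared.

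Total RNA was hybridised to Illumina BeadChips, with 1 array per dish and 4 dishes in each of 4 groups, which the study's design text calls independent. MEF are mouse embryonic fibroblasts of strain CD1, grown in 10% serum with no feeders named. OKM are the intermediate stage of the induction, also of strain CD1, with titles that carry the mark 3F. The iPS cells, again CD1, carry 3F and SOX2 in their titles, and the ES cells are embryonic stem cells of strain 129 with titles that carry R26. OKM, iPS and ES cells shared a medium with 15% serum and 10 ng/ml of LIF (leukemia inhibitory factor) and a layer of mitomycin-treated MEF feeders. Stage, serum, LIF and feeders therefore cannot be told apart in comparisons with MEF, nor can strain and cell identity in comparisons with ES. The mode of delivery of the factors is not given in the labels, nor whether the dishes of a group came from 1 line.

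Cholesterol is built from acetyl-CoA through mevalonate, farnesyl diphosphate and squalene, whose ring closure to lanosterol opens a chain of sterol steps. SREBP transcription factors switch these genes on. When sterols are plentiful, INSIG proteins hold SCAP and the SREBP precursor in the endoplasmic reticulum, and when sterols run low SCAP carries the precursor to the Golgi for cleavage, so the pathway is under feedback control. SREBP-2 acts mainly on sterol genes and SREBP-1c on fatty acid genes, and proliferating cells draw on both for new membrane.

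The fibroblast label fitted its markers, with 9 of 10 fibroblast genes detected on all MEF arrays (Postn at background) and 0 of 10 pluripotency genes detected there. All 10 pluripotency markers were detected on every iPS and ES array. In OKM 5 of the 10, Pou5f1 and Sox2 among them, were detected on all 4 arrays, and 3 (Esrrb, Utf1 and Lin28a) on none. ES replicate 5 stood apart. Its mean log2 intensity over the 10 fibroblast markers was 7.16, against 8.21 to 8.28 on the other 3 ES arrays, and Pearson's r across genes with those arrays was 0.984 to 0.985. It lay above the other 3 ES arrays for 20 of the 26 lipid genes (76.9%), against 30.9% of all genes tested, by a median of 0.70 on the log2 scale against 0.005. The counts and leading values of the comparisons with ES are therefore given with and without it.

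The first step, OKM vs MEF, asks what differed between the intermediate stage and the fibroblasts. Most genes of sterol synthesis were lower in OKM. Of the 26 genes, 17 were lower in OKM and 0 higher by an adjusted p under 0.05 and a change of at least 2-fold, where the background over all genes was 15.8% lower and 16.1% higher. By the adjusted p alone 22 were lower and 2 higher, against 34.0% and 36.5% of all genes. The median change was -1.33 on the log2 scale over the 26 genes and 0.02 over all genes tested. In bulk RNA, fewer cells of a type and less RNA per cell cannot be told apart. The fibroblast markers moved with this comparison, with 9 of 9 tested lower in OKM and a mean log2 intensity of 11.86 to 12.13 on the MEF arrays and 8.79 to 9.05 on the OKM arrays. So did 6 of 6 tested macrophage markers (8.70 to 8.81 in MEF and 5.66 to 5.79 in OKM, where C1qa, C1qb and C1qc were at background). Those means run over 8 macrophage probes, of which Ptprc and Fcer1g were at background in every group, MEF included. Of 4 tested adipocyte markers, 2 were lower in OKM and 1 higher. Pparg, the fat cell regulator, lay at 7.87 ± 0.05 in MEF and at background in OKM (at least 4.64-fold lower), and Plin4, a lipid droplet gene, at 6.44 ± 0.11 and at background (at least 1.72-fold lower). Lep, the leptin gene, was at background in MEF and at 7.90 ± 0.24 in OKM (at least 4.43-fold higher). Adipoq, Plin1, Cidec and Fabp4 were at background in every group, and the mean over 9 adipocyte probes was 5.49 to 5.62 on the MEF arrays and 5.25 to 5.50 on the OKM arrays. For each such bound, the level of the group at background was replaced on each array by the lowest level that any detected probe had there. Of 10 tested pluripotency markers, 5 were higher in OKM and 0 lower. Their mean log2 intensity was 4.73 to 5.05 on the MEF arrays and 6.82 to 7.15 on the OKM arrays. The part of these marker genes in the result was not tested.

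**Figure D1:**
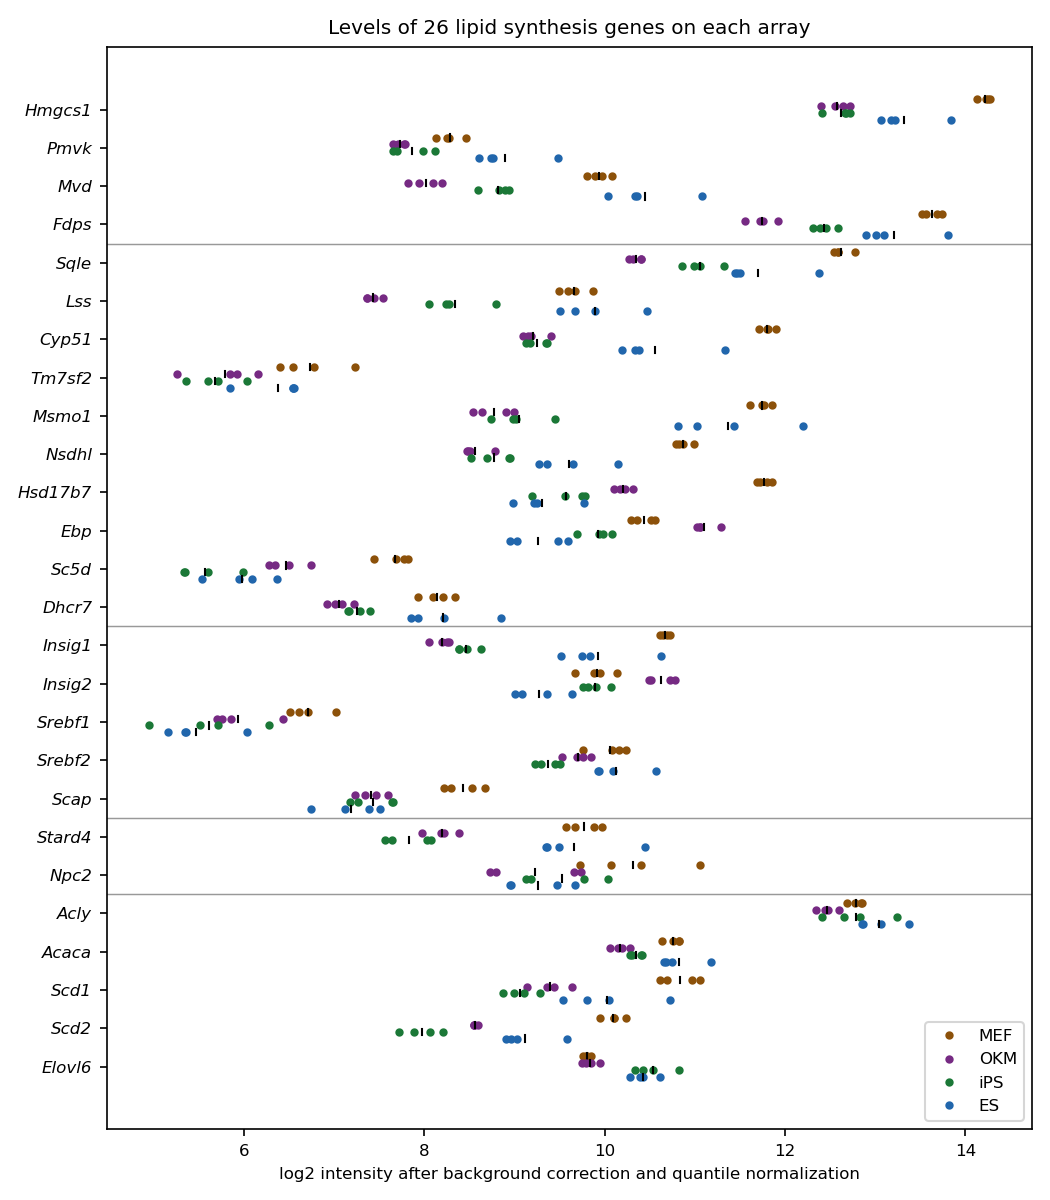
Log2 intensity (x axis) of the 26 tested genes, ordered by role, with 1 point per array and a colour per group. The MEF points lie highest for most sterol genes and the OKM points lowest, while for Ebp and Insig2 the OKM points lie highest.

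The start-site sequences are shown for the 4 genes with the largest falls in OKM, for Hmgcs1, which holds the sterol regulatory word searched for, and for Ebp and Insig2, which were higher in OKM by the adjusted p alone. Insig2 has 3 annotated windows, of which the first is shown. Windows run from 250 bases before to 50 bases after the annotated start, are written 5′ to 3′ on the gene's strand and come from RefSeq on GRCm38.p6, where 26 of the 33 listed genes matched (some of the 26 tested genes are not among them). Capitals mark CCAAT, the NF-Y motif, and TCACNCCAC, a sterol regulatory element, read on either strand (CCAAT reads as ATTGG on the other).
Msmo1 (chr8:64733529-64733828, minus strand): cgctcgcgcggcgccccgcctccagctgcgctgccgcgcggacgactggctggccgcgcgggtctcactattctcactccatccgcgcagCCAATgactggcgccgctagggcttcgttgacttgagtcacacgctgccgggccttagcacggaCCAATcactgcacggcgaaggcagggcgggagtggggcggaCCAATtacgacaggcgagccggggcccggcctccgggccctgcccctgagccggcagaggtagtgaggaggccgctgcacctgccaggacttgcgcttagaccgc
Cyp51 (chr5:4104648-4104947, minus strand): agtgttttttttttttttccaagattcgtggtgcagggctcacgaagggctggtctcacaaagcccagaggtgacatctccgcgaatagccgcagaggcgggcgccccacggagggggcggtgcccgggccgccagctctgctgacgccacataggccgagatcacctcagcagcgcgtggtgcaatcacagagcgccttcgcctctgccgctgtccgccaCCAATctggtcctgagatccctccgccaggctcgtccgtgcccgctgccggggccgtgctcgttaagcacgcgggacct
Insig1 (chr5:28071162-28071461, plus strand): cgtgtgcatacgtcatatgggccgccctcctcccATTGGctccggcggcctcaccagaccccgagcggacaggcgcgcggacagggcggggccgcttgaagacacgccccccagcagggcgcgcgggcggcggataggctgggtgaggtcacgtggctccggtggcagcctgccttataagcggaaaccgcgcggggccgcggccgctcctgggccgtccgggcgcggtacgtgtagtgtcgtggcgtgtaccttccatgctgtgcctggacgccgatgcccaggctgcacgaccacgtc
Nsdhl (chrX:72918271-72918570, plus strand): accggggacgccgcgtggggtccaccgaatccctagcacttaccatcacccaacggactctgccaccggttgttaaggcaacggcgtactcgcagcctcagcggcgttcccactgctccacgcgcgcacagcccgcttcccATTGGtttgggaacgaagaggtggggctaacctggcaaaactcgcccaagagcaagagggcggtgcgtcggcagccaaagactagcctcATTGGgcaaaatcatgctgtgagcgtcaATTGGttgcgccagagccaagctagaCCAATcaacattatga
Hmgcs1 (chr13:119690101-119690400, plus strand): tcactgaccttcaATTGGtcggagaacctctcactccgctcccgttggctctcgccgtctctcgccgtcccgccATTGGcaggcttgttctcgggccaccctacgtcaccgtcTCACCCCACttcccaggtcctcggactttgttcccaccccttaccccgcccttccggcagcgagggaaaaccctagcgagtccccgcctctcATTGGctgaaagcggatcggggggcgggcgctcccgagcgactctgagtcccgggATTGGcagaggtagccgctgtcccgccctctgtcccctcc
Ebp (chrX:8193463-8193762, minus strand): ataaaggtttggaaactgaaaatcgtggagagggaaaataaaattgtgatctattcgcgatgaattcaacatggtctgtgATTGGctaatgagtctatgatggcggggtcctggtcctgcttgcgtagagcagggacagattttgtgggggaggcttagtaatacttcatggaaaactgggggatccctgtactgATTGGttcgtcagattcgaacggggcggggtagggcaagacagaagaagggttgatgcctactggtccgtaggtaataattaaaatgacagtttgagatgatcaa
Insig2 (chr1:121332540-121332839, minus strand): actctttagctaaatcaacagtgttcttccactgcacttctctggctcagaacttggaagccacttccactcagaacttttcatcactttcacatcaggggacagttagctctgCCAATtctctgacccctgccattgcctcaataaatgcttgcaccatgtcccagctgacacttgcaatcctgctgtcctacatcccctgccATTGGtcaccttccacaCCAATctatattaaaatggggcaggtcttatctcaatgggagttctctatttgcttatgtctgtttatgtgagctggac
SREBP proteins bind sterol regulatory elements and are known to act with NF-Y and Sp1, the latter a factor of GC boxes. CCAAT was found in a window of 21 of the 26 genes matched (80.8%), which include Mvk, Idi1 and Fasn, not tested here. Counted in the same way, in any window of a gene, it was found for 43.3% of the 7637 tested genes with a window. The share was 41.1% over all 27018 genes with a window, and 37.4% of all 32841 single windows held it. The GC box GGGCGG was found for 22 of 26 (84.6%), against 68.5% of those tested genes, 38.2% of all genes and 35.7% of all windows. TCACNCCAC was found for Hmgcs1 alone (3.8%), from base -137 to base -129 before its start. It was found for 1.43% of tested genes, 1.44% of all genes and in 1.24% of all windows. These words do not overlap each other in the windows shown. CCAAT was also found for Ebp and in the first of the 3 Insig2 windows, not in the other two, and in neither of the 2 windows of Scap, a gene that fell. A match is a description of letters, not a bound site.

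Among the enzymes from acetoacetyl-CoA to squalene, 3 of the 4 tested fell in OKM. Hmgcs1, which makes HMG-CoA and carries the promoter word above, fell from a log2 intensity of 14.22 ± 0.06 to 12.58 ± 0.14 (SD, n = 4), a 3.12-fold change. Fdps, which makes farnesyl diphosphate, fell from 13.63 ± 0.10 to 11.74 ± 0.15, a 3.70-fold change. Pmvk, phosphomevalonate kinase, had a log2 change of -0.55 ± 0.16 (SE) that passed the adjusted p (limma, 0.00459) and not the 2-fold limit.

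Mvd, the decarboxylase that yields isopentenyl diphosphate, is given array by array. It read 9.90, 10.08, 9.80 and 9.97 on MEF replicates 1 to 4 and 7.82, 8.20, 7.94 and 8.10 on OKM replicates 1 to 4. On iPS replicates 1 to 4 it read 8.94, 8.60, 8.83 and 8.89, and on ES replicates 1, 2, 4 and 5 it read 10.36, 10.34, 10.04 and 11.08. OKM lay below iPS and iPS below MEF with no overlap, and the ES range met the top of the MEF range. The fall in OKM was 1.92 ± 0.17 on the log2 scale (SE), or 3.79-fold (limma, adjusted p = 1e-08).

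Of the 10 sterol enzymes, 8 fell in OKM. The largest fall among all 26 genes was that of Msmo1, the methylsterol oxidase that acts after Cyp51 and starts removal of a further pair of methyl groups from the ring. It read 11.85, 11.61, 11.77 and 11.74 in MEF and 8.54, 8.99, 8.91 and 8.64 in OKM, in the same order of replicates. The iPS arrays read 9.45, 9.02, 8.99 and 8.74 and the ES arrays 11.02, 10.82, 11.44 and 12.19. OKM and iPS overlapped at the bottom, and the MEF values lay inside the wide ES range. Msmo1 fell 7.85-fold from MEF to OKM, a log2 change of -2.97 ± 0.22 (adjusted p = 1.52e-09).

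Cyp51, the lanosterol demethylase, read 11.71, 11.81, 11.90 and 11.81 in MEF and 9.15, 9.18, 9.10 and 9.41 in OKM. Its iPS values were 9.36, 9.18, 9.36 and 9.13, and its ES values 10.38, 10.19, 10.34 and 11.33. OKM and iPS shared 1 range, ES lay above both and MEF above ES without overlap. The fall was 6.05-fold (log2 change -2.60 ± 0.18, adjusted p = 4.29e-10).

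Nsdhl, a dehydrogenase that follows Msmo1 in the removal of those methyl groups, read 10.79, 10.99, 10.82 and 10.87 in MEF and 8.48, 8.49, 8.50 and 8.79 in OKM. In iPS it read 8.52, 8.70, 8.95 and 8.94, and in ES 9.65, 9.36, 9.27 and 10.14. The groups came in the same order as for Cyp51, with OKM and iPS overlapping. The fall was 4.94-fold (-2.30 ± 0.16), and its other 3 detected probes gave log2 changes of -2.34, -1.97 and -2.22.

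Lss, lanosterol synthase, closes the ring. It read 9.87, 9.68, 9.49 and 9.59 in MEF and 7.55, 7.37, 7.37 and 7.45 in OKM. In iPS it read 8.80, 8.05, 8.24 and 8.28, and in ES 9.68, 9.89, 9.51 and 10.48. As for Mvd, iPS lay between OKM and MEF without overlap, and ES overlapped MEF. The fall from MEF to OKM was 4.67-fold (-2.22 ± 0.18).

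Sqle, squalene epoxidase and a rate-limiting step, fell 4.84-fold from 12.62 ± 0.11 to 10.35 ± 0.06, and its second probe had a log2 change of -2.50. Hsd17b7, the sterol ketone reductase, fell 2.96-fold, and Sc5d, a sterol desaturase, fell 2.32-fold. Dhcr7, a reductase at the end of the chain, fell 2.12-fold. Tm7sf2, a sterol reductase, had a log2 change of -0.94 ± 0.22, short of 2-fold, and was detected on 3 of 4 OKM arrays.

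Ebp, the sterol isomerase of the same chain, had the opposite sign to the other 9 sterol enzymes. It read 10.55, 10.30, 10.51 and 10.36 in MEF and 11.02, 11.06, 11.29 and 11.06 in OKM. The iPS arrays read 9.70, 10.08, 9.94 and 9.98, and the ES arrays 9.03, 8.95, 9.59 and 9.48. All 4 groups were separate, in the order OKM, MEF, iPS and ES from the top. The log2 change in OKM was 0.68 ± 0.14 (adjusted p = 0.000252), or 1.60-fold, which passed the adjusted p and not the 2-fold limit.

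The genes of SREBP control did not move as 1 group. Insig1, an SREBP target that closes the feedback loop, read 10.65, 10.73, 10.62 and 10.69 in MEF and 8.20, 8.05, 8.25 and 8.28 in OKM. It read 8.38, 8.63, 8.38 and 8.47 in iPS and 9.83, 9.75, 9.52 and 10.63 in ES. OKM was lowest and iPS next without overlap, and only ES replicate 5 reached the MEF values. Insig1 fell 5.57-fold in OKM (-2.48 ± 0.16, adjusted p = 2.71e-10), and its other 2 detected probes had log2 changes of -1.78 and -2.51.

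Insig2, the sister protein with the same retention role, had the opposite sign. It read 10.14, 9.68, 9.95 and 9.88 in MEF and 10.78, 10.52, 10.72 and 10.49 in OKM. In iPS it read 9.90, 10.07, 9.82 and 9.76, and in ES 9.08, 9.01, 9.64 and 9.37. By this probe, the brightest, OKM lay above all other groups, MEF and iPS overlapped, and ES was lowest. The log2 change in OKM was 0.71 ± 0.14 (adjusted p = 0.000137), or 1.64-fold, under the 2-fold limit, and the second detected probe gave 0.50. That second probe had its highest mean in ES (8.52) and then OKM (8.02), so the 2 probes differ on the place of ES.

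Srebf1, which encodes SREBP-1, read 6.71, 6.51, 6.61 and 7.02 in MEF and 5.76, 6.43, 5.86 and 5.70 in OKM, close to background. In iPS it read 6.27, 5.51, 5.71 and 4.95 and in ES 5.34, 5.35, 5.16 and 6.03, with detection on 2 of 4 iPS arrays and 1 of 4 ES arrays. MEF lay above all other groups, which overlapped each other. Its log2 change in OKM was -0.78 ± 0.24 (adjusted p = 0.00831), under the 2-fold limit.

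Srebf2, which encodes SREBP-2, read 9.77, 10.08, 10.23 and 10.16 in MEF and 9.53, 9.70, 9.76 and 9.85 in OKM. Its iPS values were 9.23, 9.30, 9.51 and 9.45 and its ES values 10.09, 9.93, 9.93 and 10.57. MEF overlapped OKM and ES, and iPS was lowest. The change in OKM was -0.35 ± 0.14 (adjusted p = 0.0326), far smaller than those of the sterol enzymes. Scap, the escort protein of both factors, fell 2.03-fold from 8.43 ± 0.21 to 7.41 ± 0.16, just past the limit.

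**Figure D2:**
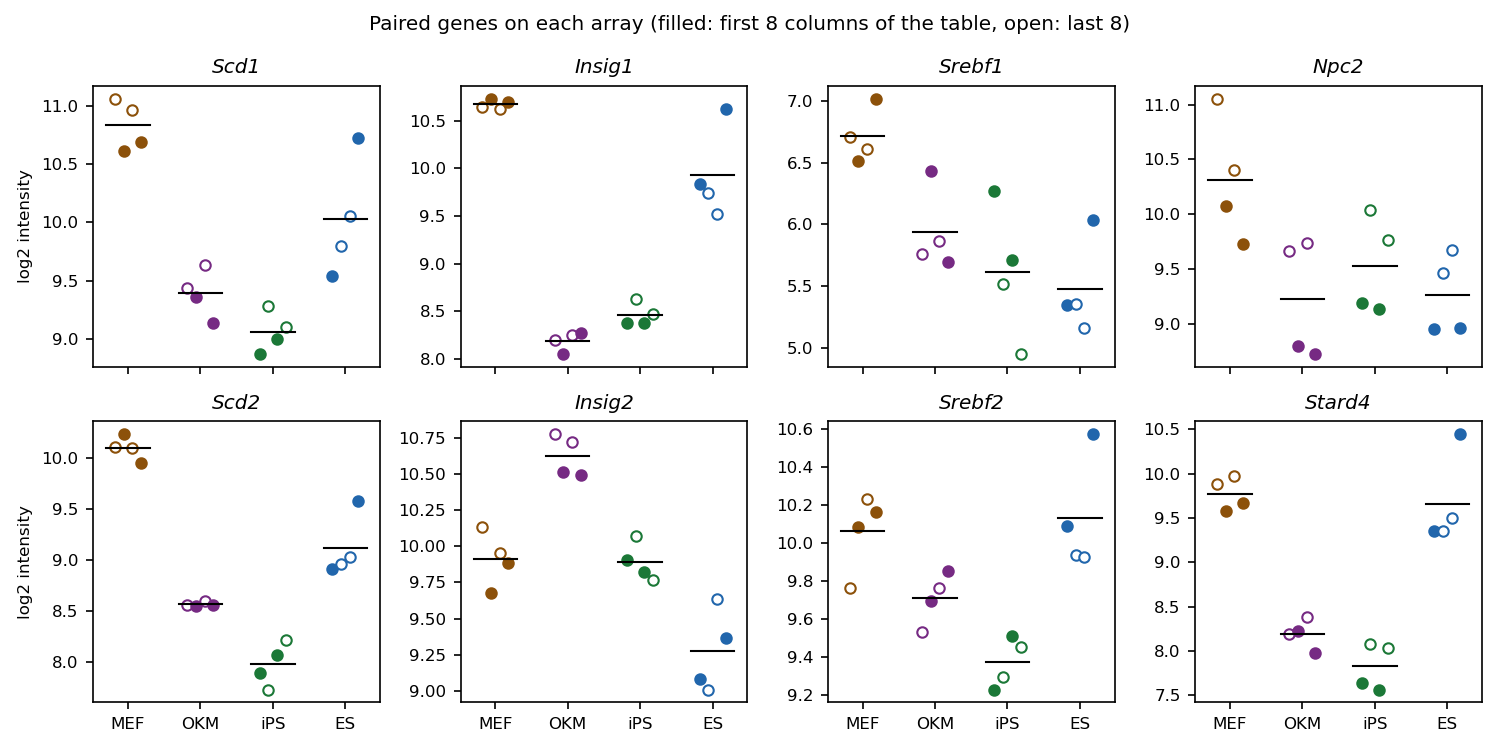
Log2 intensity (y axis) of Insig1, Insig2, Srebf1, Srebf2, Scd1, Scd2, Stard4 and Npc2 in each group, with 1 point per array, filled for the first 8 columns of the deposited table and open for the last 8, and a bar at the group mean. Insig1 is lowest in OKM where Insig2 is highest, and the Npc2 points split by column place in every group.

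Stard4, a soluble sterol carrier and known SREBP-2 target, read 9.88, 9.57, 9.97 and 9.67 in MEF and 8.19, 8.22, 8.39 and 7.98 in OKM. It read 7.64, 8.08, 7.57 and 8.03 in iPS and 9.35, 9.36, 9.50 and 10.44 in ES. The high pair of groups, MEF and ES, was separate from the low pair, OKM and iPS. Stard4 fell 2.99-fold in OKM (-1.58 ± 0.20).

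Npc2 carries cholesterol out of the lysosome. It read 11.05, 10.07, 10.41 and 9.73 in MEF and 9.66, 8.80, 9.74 and 8.72 in OKM. In iPS it read 9.19, 10.03, 9.13 and 9.77, and in ES 8.96, 9.47, 9.68 and 8.97. The MEF and OKM ranges overlapped, and MEF and ES were the sole pair of groups that did not. Within every group the arrays in the last 8 columns of the deposited table read above those in the first 8, by 0.83 in MEF, 0.94 in OKM, 0.74 in iPS and 0.61 in ES. Scd1 was split in the same direction in 3 groups. Other genes leaned the other way, with lower means in the last 8 columns. For Mvd the differences were -0.18 in MEF, -0.27 in OKM, -0.14 in iPS and -0.53 in ES. For Cyp51 they were -0.17 in OKM, -0.21 in iPS and -0.59 in ES. The main fit has no term for column place. Npc2 fell 2.12-fold in OKM (-1.08 ± 0.30, adjusted p = 0.00349). The same change had a limma adjusted p of 7.75e-07 with column place as a block, and of 0.00977 with replicate number as a block. The Npc2 change within the first 8 columns was -1.14 and within the last 8 was -1.03, and the call was lost without MEF replicate 1 (-0.84), without OKM replicate 2 (-0.94) and without OKM replicate 4 (-0.91).

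The fatty acid enzymes differed in the size of their change. Of 5 tested, 3 were lower in OKM by the adjusted p alone and 2 by both limits. Acly, which makes cytosolic acetyl-CoA, had a change in OKM of -0.32 ± 0.15 that did not pass the adjusted p (0.0623), and Elovl6, an elongase of saturated chains, one of 0.03 ± 0.10 (adjusted p = 0.786). Acaca, acetyl-CoA carboxylase, had a change of -0.59 ± 0.11 that passed the adjusted p and not the 2-fold limit. Both stearoyl-CoA desaturases, which make monounsaturated fatty acids, fell.

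Scd1 read 11.06, 10.61, 10.97 and 10.69 in MEF and 9.44, 9.36, 9.64 and 9.14 in OKM. It read 8.87, 9.28, 9.00 and 9.10 in iPS and 9.54, 9.80, 10.05 and 10.72 in ES. MEF was separate from OKM and iPS, which overlapped each other, and ES spanned from the OKM range to the MEF range. Scd1 fell 2.71-fold in OKM (-1.44 ± 0.19).

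Scd2 read 10.11, 10.24, 10.10 and 9.95 in MEF and 8.56, 8.55, 8.60 and 8.55 in OKM. It read 7.89, 7.73, 8.07 and 8.21 in iPS and 8.91, 8.96, 9.02 and 9.58 in ES. No groups overlapped, with MEF on top, then ES, OKM and iPS. Scd2 fell 2.90-fold in OKM (-1.53 ± 0.13).

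Beyond the list, other genes of the pathway were counted from lists drawn up with it. Of 23 tested genes of other fatty acid and lipid synthesis steps, 7 fell in OKM and 0 rose, with a median log2 change of -0.36, where 15.8% of all genes were lower and 16.1% higher. The largest falls were those of the fatty acid desaturase family, Fads3 at -2.88 ± 0.16, Fads2 at -2.37 ± 0.21 and Fads1 at -2.01 ± 0.13. Among 7 genes of sterol uptake, trafficking and efflux, 3 fell and 0 rose. They were the lysosomal lipase gene Lipa at -1.61, the lipoprotein receptor gene Vldlr at -1.31 and Lrp1 at -1.07. Of 3 other sterol synthesis genes tested, Cyb5r3, an electron donor, fell by 1.21. Of 12 fatty acid oxidation genes, 1 rose by both limits, the short-chain dehydrogenase gene Acads at 1.36, and 0 fell. That count of rises was below the share over all genes. By the adjusted p alone 8 of the 12 were higher in OKM and 1 lower, against 36.5% and 34.0% of all genes. None of 6 tested SREBP and LXR regulators passed both limits.

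The second step, iPS vs OKM, asks what differed in the cells whose titles add SOX2. Few lipid genes passed both limits. Of 26, 1 was lower in iPS and 0 higher by both limits, against a background of 5.95% lower and 7.31% higher. By the adjusted p alone 5 were higher and 6 lower, against 26.8% and 28.1% of all genes, so neither direction exceeded the background. The median change was 0.09 over the 26 genes and -0.02 over all. Ebp was the gene called, 2.27-fold lower in iPS (-1.18 ± 0.14, adjusted p = 1.14e-06), with no overlap of arrays.

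The 5 genes higher in iPS by the adjusted p alone were Lss (0.91 ± 0.18), Mvd (0.80 ± 0.17), Sqle (0.72 ± 0.17), Elovl6 (0.70 ± 0.10) and Fdps (0.69 ± 0.15), all short of 2-fold. The 6 lower ones were Ebp, Sc5d (-0.90 ± 0.17), Insig2 (-0.74 ± 0.14), Hsd17b7 (-0.63 ± 0.15), Scd2 (-0.59 ± 0.13) and Srebf2 (-0.34 ± 0.14). The enzymes with the largest falls in OKM had small differences here. Msmo1 differed by 0.28 ± 0.22 (adjusted p = 0.311), Cyp51 by 0.05 ± 0.18 (0.844), Nsdhl by 0.21 ± 0.16 (0.271) and Insig1 by 0.27 ± 0.16 (0.173).

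Around the set, Apoe, the lipoprotein ligand, rose by 2.39 ± 0.16 on the log2 scale, from 9.43 ± 0.09 in OKM to 11.82 ± 0.26 in iPS (SD, n = 4). Dgat2, which makes triglyceride, rose by 1.43 ± 0.14. Mlxipl, a glucose-responsive factor of lipid genes, was not well above background on any OKM array and was at least 1.56-fold higher in iPS. Of 12 oxidation genes, 0 passed both limits. By the adjusted p alone 10 were lower in iPS and 1 higher, against 28.1% and 26.8% of all genes. Of the markers, 8 of 10 pluripotency genes were higher in iPS and 2 of 9 fibroblast genes lower.

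Comparing the iPS end point with ES, iPS vs ES, 8 of the 26 genes were lower in iPS and 0 higher by both limits, against a background of 7.32% lower and 11.2% higher. By the adjusted p alone 18 were lower and 2 higher, against 31.8% and 30.1% of all genes. The median change was -0.73 over the 26 genes and -0.04 over all. Without ES replicate 5, 6 of 26 were called, all lower (7.13% of all genes), and by the adjusted p alone 17 were lower and 3 higher. The fibroblast markers lay at 8.52 to 8.66 on the iPS arrays and at 7.16 to 8.28 on the ES arrays, with 3 of 9 called higher in iPS, and 4 of 10 pluripotency markers were lower in iPS. The macrophage marker mean was 5.58 to 5.66 on the iPS arrays and 5.89 to 6.27 on the ES arrays. Of 6 tested, 1 was lower in iPS, the lysozyme gene Lyz2, at 9.04 ± 0.19 in iPS and 11.65 ± 0.40 in ES, and C1qa, C1qb and C1qc were at background in both. Their part in the result was not tested.

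Msmo1 had the largest difference, 4.99-fold lower in iPS (-2.32 ± 0.22, adjusted p = 1.01e-07) and -2.04 ± 0.17 without ES replicate 5. Stard4 was 3.56-fold lower (-1.83 ± 0.20; -1.57 without that array). Mvd was 3.11-fold lower (-1.64 ± 0.17, and -1.43 without it) and Lss 2.92-fold lower (-1.55 ± 0.18, and -1.35 without it). Insig1 was 2.76-fold lower (-1.46 ± 0.16, and -1.23 without it), and Cyp51 2.47-fold lower (-1.31 ± 0.18, and -1.05 without it). These 6 genes had no overlap between the iPS and ES arrays.

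The remaining calls, Scd2 and Pmvk, rested on ES replicate 5. Scd2 was 2.21-fold lower in iPS with all arrays (-1.15 ± 0.13) and at -0.99 ± 0.11 without it, and Pmvk 2.05-fold lower (-1.03 ± 0.16) and at -0.84 ± 0.11. Scd1, the other desaturase, was at -0.97 ± 0.19 with all arrays, so the calls set the pair on opposite sides of a limit that their values lie close to. Ebp (0.66 ± 0.14) and Insig2 (0.62 ± 0.14) were the 2 genes higher in iPS by the adjusted p alone with all arrays. Without that array Ebp was at 0.73, Insig2 at 0.65 and Hsd17b7, the third such gene, at 0.42.

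For Insig2 the probes disagreed here. The brightest probe gave 0.62 and the second detected probe -1.03 for iPS vs ES, and -0.64 and 1.01 for ES vs MEF. Insig2 thus has no settled direction in the comparisons with ES, while both probes ran the same way in OKM vs MEF and in iPS vs OKM (-0.74 and -0.52). Srebf2 had a change of -0.76 ± 0.14 in iPS (-0.61 without ES replicate 5), past the adjusted p and under 2-fold. Srebf1 differed by 0.14 ± 0.24 (adjusted p = 0.638; 0.33 ± 0.24 without that array).

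Among the other pathway genes, 4 of 23 fatty acid and lipid synthesis genes were higher in iPS than in ES and 2 lower, where 11.2% of all genes were higher and 7.32% lower, so the lower count is near the background. Acsl5, an acyl-CoA synthetase, was higher by 1.81 ± 0.08 and Fads3 by 1.28 ± 0.16, while Hacd2 was at background in ES and at least 1.47-fold higher in iPS. Fads2 was lower by -1.72 ± 0.21 and Acsl3 by -1.48 ± 0.13. Of the 6 regulators, 3 were lower in iPS: Rxra, the partner of LXR (-1.81 ± 0.11), Prkaa2, an AMP-activated kinase subunit (-1.66 ± 0.18), and Mlxipl (-1.39 ± 0.15). Abcg1, a sterol exporter, was at background on all iPS arrays and at least 1.65-fold lower there. The genes named here kept their calls without ES replicate 5, where Fads2 was at -1.49, Prkaa2 at -1.54, Fads3 at 1.13 and Rxra at -1.79.

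**Figure D3:**
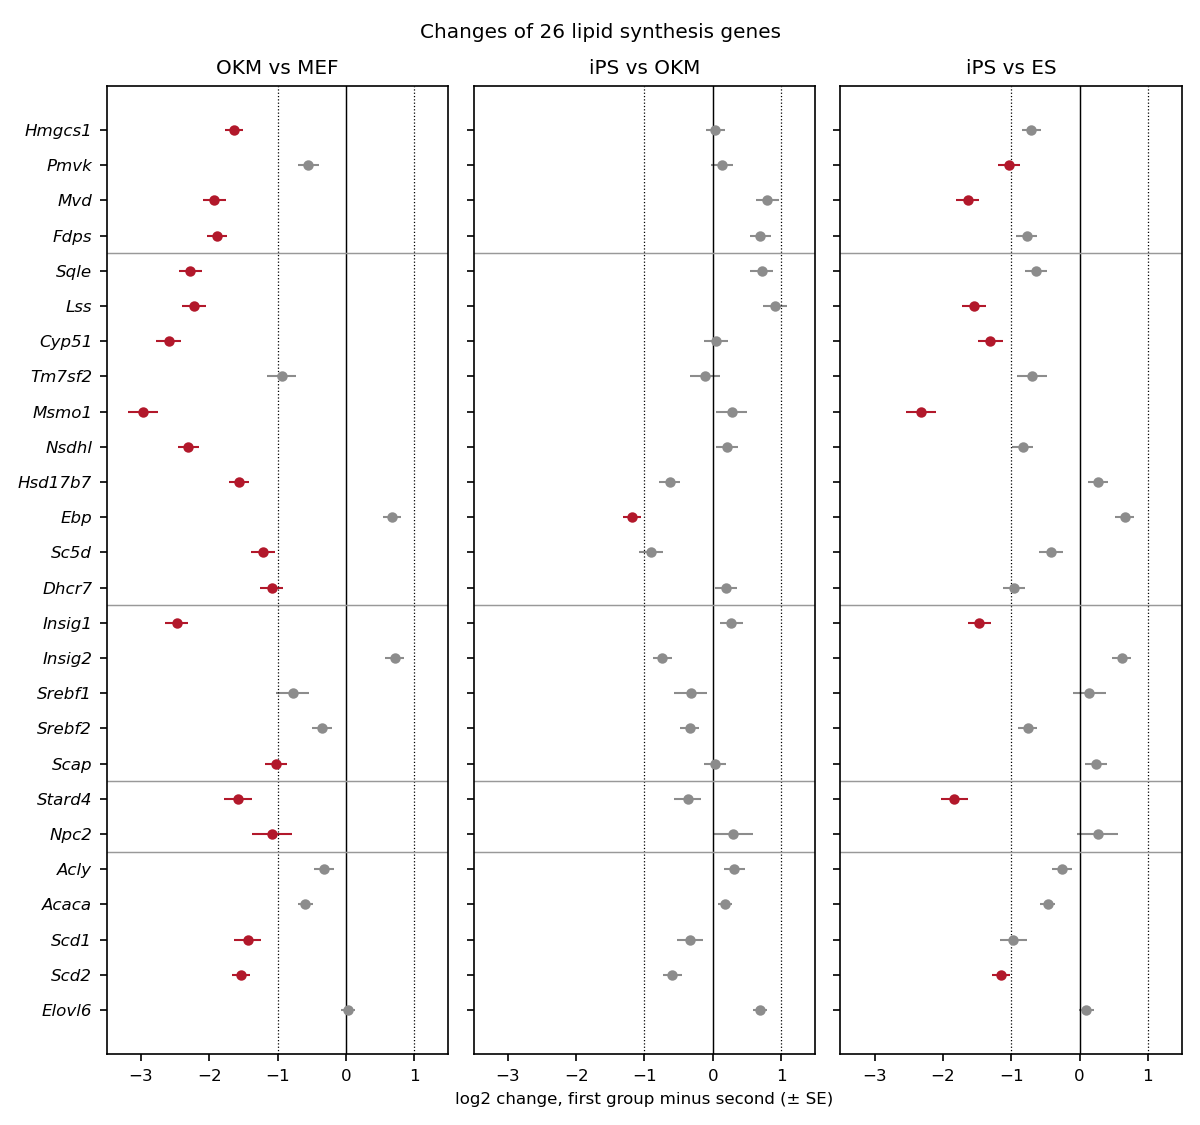
Log2 change (x axis, first group minus second, with SE) of the 26 genes in the 3 main comparisons, with dotted lines at the 2-fold limit and called genes in red. In OKM vs MEF most sterol genes lie left of the limit, in iPS vs OKM all but Ebp lie between the limits, and in iPS vs ES 8 lie left of it.

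The other 3 comparisons reuse the same arrays and are given side by side with the main ones, not as independent evidence. In iPS vs MEF, 16 genes were lower and 0 higher (background 17.5% and 19.1%). In ES vs MEF, 8 were lower and 0 higher, against 24.3% and 24.2% of all genes. In OKM vs ES, 11 were lower and 2 higher (background 16.5% and 18.1%), the higher ones being Ebp (1.85 ± 0.14) and Insig2 (1.35 ± 0.14 by the brightest probe).

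Of the 8 genes lower in ES than in MEF, Hsd17b7 had the largest change (-2.46 ± 0.15), followed by Sc5d (-1.70), Nsdhl (-1.26), Cyp51 (-1.24), Srebf1 (-1.24), Scap (-1.24), Ebp (-1.17) and Npc2 (-1.05). Msmo1 (-0.38), Stard4 (-0.11), Lss (0.23) and Mvd (0.51) had no call and their MEF and ES arrays overlapped. Without ES replicate 5 those changes were -0.65, -0.37, 0.04 and 0.30, and that of Hsd17b7 was -2.62. Without ES replicate 5 there were 11 calls for ES vs MEF, all lower in ES, against 24.4% of all genes. Hmgcs1, Sqle, Scd1 and Scd2 were gained and Npc2 lost. Without that array OKM vs ES had 11 calls in place of 13, with 3 higher and 8 lower in OKM, against 17.9% and 16.5% of all genes.

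Ranked by group mean, 16 of the 26 genes were highest in MEF (34.7% of all genes were) and 14 were lowest in OKM (19.2% of all genes). The order MEF, ES, iPS, OKM from the top was held by 7 genes, Cyp51, Fdps, Hmgcs1, Insig1, Nsdhl, Msmo1 and Sqle, and by 4.85% of all genes. A further 6, Acaca, Acly, Dhcr7, Lss, Mvd and Pmvk, had ES on top, then MEF, iPS and OKM, as did 3.18% of all genes. Without ES replicate 5, 4 genes kept that order (Pmvk, Mvd, Lss and Acly), since Acaca and Dhcr7 then had MEF on top and made the first order one of 9 genes. Without it 19 genes were highest in MEF, and 14 were again lowest in OKM. Arrays of neighbours in these orders often overlapped, as those of OKM and iPS did for Cyp51, Nsdhl and Msmo1, and those of MEF and ES for Lss and Mvd. Of the 26, Elovl6 alone was lowest in MEF, at 9.80 ± 0.03, against 10.53 ± 0.22 in iPS.

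Spread within groups was widest in ES. The median SD over the 26 genes was 0.37 in ES and 0.12 in MEF, 0.14 in OKM and 0.21 in iPS, against 0.20, 0.13, 0.14 and 0.18 over all genes. On ES replicate 5, 11 of the 26 genes lay above the MEF mean, and by the mean of the other 3 ES arrays 5 did. The gap between that array and the mean of the other ES arrays was 1.10 for Msmo1, 1.04 for Stard4, 1.03 for Cyp51 and 0.93 for Insig1, while it was 0.12 for Insig2 and -0.40 for Npc2. The array's macrophage marker mean was 5.89 against 6.18 to 6.27 on the other ES arrays, and its pluripotency marker mean 11.90 against 11.93 to 12.13. Whether these differences have a part in its lipid gene levels was not tested.

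**Figure D4:**
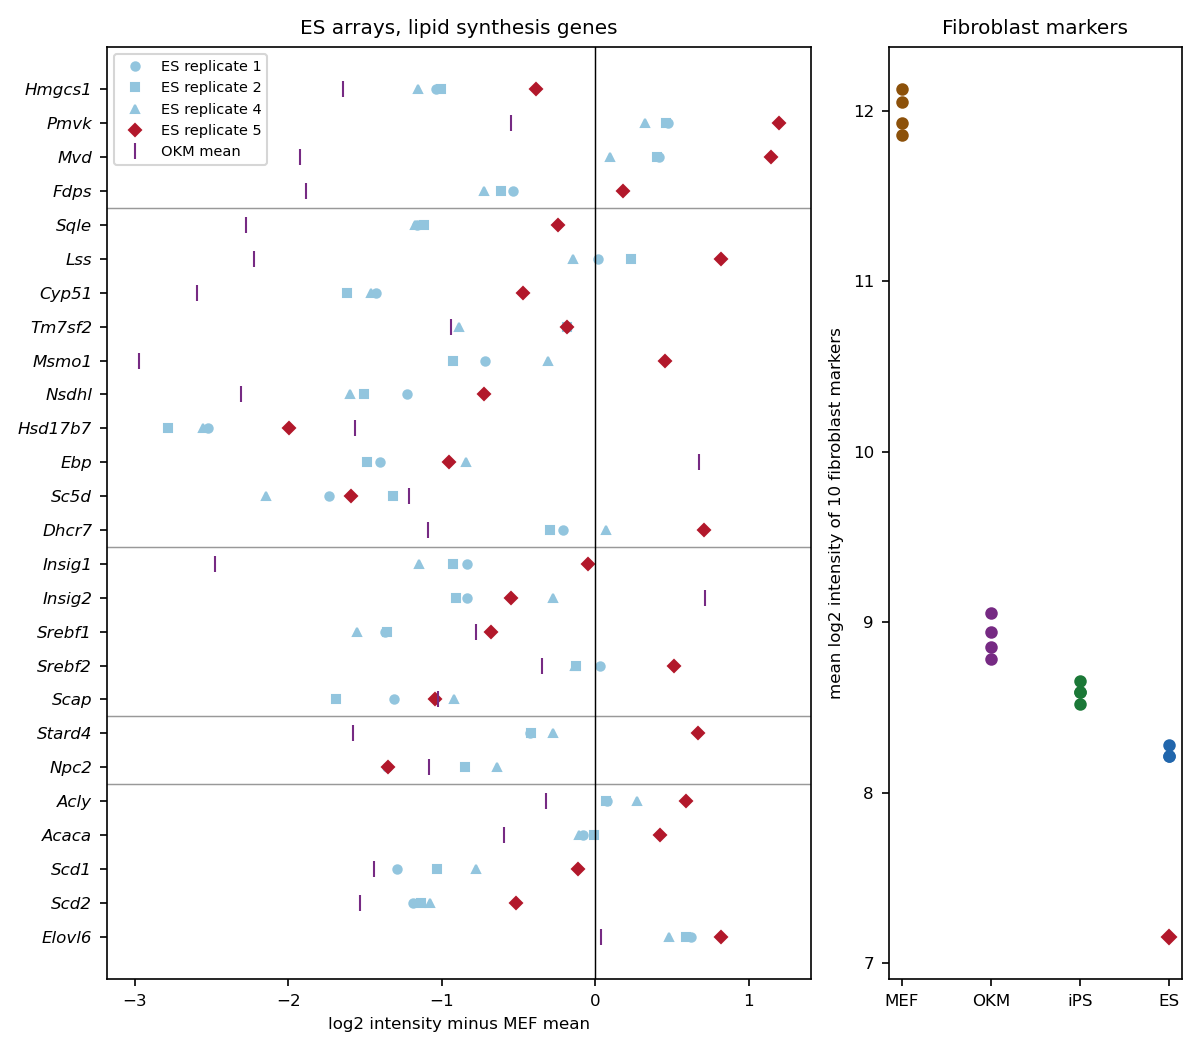
Left, log2 intensity minus the MEF mean (x axis) of the 26 genes on each ES array, with replicate 5 in red and the OKM mean as a tick. Right, the mean log2 intensity of 10 fibroblast markers (y axis) on each array by group. Replicate 5 lies right of the other ES arrays for 20 genes and at 7.16 for the markers, below the other ES arrays.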

How the data were processed

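Total RNA of 16 dishes was measured on Illumina BeadChips, and arrays were grouped by the cell type in the labels. The authors deposited a non-normalized table that holds, per the file headers, 25697 probes with a mean bead intensity and a detection p-value per array, and a normalized intensity table. The submitters' processing notes name GenomeStudio, and its settings are not given in the sources used here. Symbols came from the platform annotation, updated by Entrez ID with RefSeq names for 23962 probes. A single symbol was found for 23978 probes and no symbol for 1719.

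In R 4.3.3, neqc of limma 3.58.1 corrected the background by normexp using the detection p-values, added an offset of 16, applied quantile normalization and gave log2 intensities. Each gene was read from its brightest probe, kept when its detection p-value was under 0.01 on at least 4 arrays. A mean per group was fitted over all 16 arrays by lmFit and tested with contrasts.fit and eBayes (12 residual and 4.83 prior degrees of freedom), with two-sided tests and Benjamini-Hochberg adjustment over 9453 genes per comparison. Called means an adjusted p under 0.05 and at least 2-fold. The p-values measure the spread between dishes. Raw medians were 114.7 to 134.2, with 44.9% to 49.1% of probes detected, and the number of arrays limits the precision (median SE of a log2 change 0.163 over the members). Within groups, Pearson's r across genes was 0.984 to 0.996.

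The members and the lists of other pathway genes and markers were chosen with earlier results of these data known. Every member is named. Array values are given for the 4 largest called changes per direction of each main comparison, without overlap between arrays, and for the pairs Insig1 and Insig2, Srebf1 and Srebf2, Scd1 and Scd2, and Npc2 (its partner Npc1 had no probe named here). Up to 3 other genes per list and direction are named. The fit was tested on simulated data. Promoter windows are RefSeq's (GRCm38.p6), searched in Python 3.11.15 with pandas 2.3.3. The alternatives tried covered background correction, normalization, filters, probes, thresholds, blocks, array weights and leaving out each array.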

Additional observations from a re-analysis of the deposited data

Results flagged for a closer look

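In each group of 4 arrays, the gap between the highest or lowest array and its nearest neighbour was set against the group's range. Of 104 combinations of gene and group, 9 had a share of the range above Dixon's critical value at the 95% level, and chance gives about 1 in 20. ES replicate 5 accounts for 4 of them, all on the high side. Sqle read 12.38 there, against 11.45 to 11.51 on the other ES arrays, and Cyp51 read 11.33 against 10.19 to 10.38. Stard4 read 10.44 against 9.35 to 9.50, and Scd2 read 9.58 against 8.91 to 9.02.

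The other 5 lie on different arrays. Hmgcs1 read 12.41 on iPS replicate 4, below 12.67 to 12.72 on the others. Tm7sf2 read 5.85 on ES replicate 4, where both ends of the other 3 arrays round to 6.55. Nsdhl read 8.79 on OKM replicate 4, above 8.48 to 8.50. Ebp read 11.29 on OKM replicate 3, above 11.02 to 11.06. Scd2 read 8.60 on OKM replicate 3, above 8.55 to 8.56, a gap of little size since this group's SD was 0.02.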

How the results depend on the processing

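Of 18 called changes of the genes given array by array, 16 kept their call and direction in all 34 alternatives. The exceptions were Npc2 in OKM vs MEF and Scd2 in iPS vs ES. Npc2 was lost without background correction (-0.98) and without each of 3 arrays, Scd2 without background correction and without ES replicate 5. Not all of the 34 put a call at risk. The looser limits could lose none. Leaving out an array of a group not compared, or adding column place as a block, left the log2 change as it was. Over the 16 alternatives that keep the call rule and leave out no single array, the called genes out of 26 numbered 13 to 18 for OKM vs MEF, 1 to 2 for iPS vs OKM, 6 to 13 for iPS vs ES, 4 to 12 for ES vs MEF, 10 to 14 for OKM vs ES and 13 to 17 for iPS vs MEF. All lowest counts but that of iPS vs OKM came without background correction. Counts that moved by over 1.5 times were these. ES vs MEF had 4 without background correction, and iPS vs OKM had 2 in the authors' table. By the adjusted p alone there were 11 for iPS vs OKM, 20 for iPS vs ES, 18 for ES vs MEF and 23 for OKM vs ES. At a 1.5-fold limit there were 10 for iPS vs OKM, 18 for iPS vs ES and 16 for ES vs MEF. Within the first 8 columns of the table there were 2 for iPS vs OKM and 13 for iPS vs ES. A looser limit adds genes by construction, and otherwise the cause was not tested.

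Leaving out 1 array at a time gave 16 to 17 calls for OKM vs MEF, 1 to 2 for iPS vs OKM, 6 to 10 for iPS vs ES, 7 to 11 for ES vs MEF, 11 to 13 for OKM vs ES and 15 to 17 for iPS vs MEF. Directions reversed in 4 cases, none of them called: Cyp51 in iPS vs OKM (-0.0558 under median scaling), Insig2 in iPS vs ES (-0.2057 with the mean of its probes) and Srebf1 in iPS vs ES (-0.0261 within the last 8 columns and -0.0807 without iPS replicate 1, up to 0.3614 without iPS replicate 4). Deviations of same-numbered arrays from their group means correlated at a median of -0.135 (4 of 21 pairs over 0.1), those of other pairs at 0.024. Deviations also followed column place. They correlated mostly positively for pairs at the same place and mostly negatively otherwise, down to -0.546. Most same-numbered pairs lie at different places, so the median cannot show whether the numbers pair the arrays. Same-numbered MEF and OKM arrays, at the same place, correlated at 0.55, 0.01, 0.30 and 0.44 for replicates 1 to 4. With the replicate block the counts were 17 for OKM vs MEF, 1 for iPS vs OKM, 7 for iPS vs ES, 10 for ES vs MEF, 16 for iPS vs MEF and 11 for OKM vs ES. With column place as a block they were 17, 1, 8, 8, 16 and 13 in the same order, as in the main fit. Each group is divided evenly between the first 8 and last 8 columns. That block therefore cannot alter a log2 change, only its p-value. Without background correction, the counts over all genes fell from 3014 to 1982 for OKM vs MEF, from 1253 to 674 for iPS vs OKM and from 1755 to 939 for iPS vs ES. Median scaling moved the median of all genes to -0.10 in iPS vs OKM and -0.11 in iPS vs ES. Genes near background (Srebf1, Tm7sf2 and Sc5d) have compressed fold changes.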
